A study of Mus musculus with 412 samples.

Results

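The 10 neuropeptide genes Calca, Calcb, Tac1, Adcyap1, Gal, Nmb, Nts, Sst, Vip and Cartpt were followed across single sensory neurons that innervate the mouse colon. They were chosen by name, as genes whose Ensembl identifier maps to these symbols, and all 10 were found among the 45513 genes of the deposited table. Neurons came from healthy C57BL/6J mice and were picked by hand from dissociated dorsal root ganglia (DRG), 3 to 10 days after Fast Blue, a retrograde tracer, had been injected into the wall of the colon. Ganglia of segments T10-L1 (thoracolumbar, TL) were cultured apart from those of segments L5-S2 (lumbosacral, LS), and each picked neuron became 1 Smart-seq2 library, a full-length cDNA library of polyadenylated RNA. The labels list 399 neurons in 6 library plates, and the table holds 325 of them, with 167 from TL and 158 from LS ganglia. The labels name no mouse or culture for a neuron, so TL and LS are 1 sample each, no test of a difference could be made, and no p-value is given.

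Neuropeptides are made as larger precursors, cut and often amidated in the secretory pathway, and stored in dense-core vesicles. Peptidergic sensory neurons release them both from central terminals in the spinal cord and from peripheral endings, where they act on blood vessels, epithelium, immune cells and enteric neurons. In the gut, calcitonin gene-related peptide (CGRP) and substance P are the classical peptides of extrinsic afferents, and spinal visceral afferents as a whole are known as richly peptidergic.

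Levels are given in units, of which every neuron holds 1000000 in all: each deposited value was taken off its log2 scale and rescaled so that the values of a neuron sum to 1000000. These values are relative to gene length, so the order of different genes depends on the length used, which need not be that of the transcript made. Tac1, with a length of 3399 bases, had 3028092 reads over all neurons and a mean of 2017 units. Gal, with 712 bases, had 956884 reads and a mean of 2982 units. A gene was counted as expressed in a neuron at 10 units or more. The 95% interval behind each share is the exact binomial one (Clopper-Pearson) and reflects counting error alone. Where no neuron expressed a gene, the share that this allows is given as 3 over the number of neurons. That approximate limit lies below the upper end of the exact interval. The values could be turned back into whole reads, and the median neuron of TL had 2709639 reads and that of LS 3202776, over a range of 416007 to 12058968. At this depth 1 read of Calca was worth 0.555 units in the median neuron and at most 4.1. Positions of genes are those of GRCm38 in GENCODE M21.

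Each neuron was placed by marker genes that are not neuropeptides. Gfra3, the receptor subunit for artemin, was at 10 or more in 100 TL and 83 LS neurons, which are called Gfra3 neurons. Piezo2, a mechanically gated channel, was at 10 or more with Gfra3 under 10 in 55 TL and 65 LS neurons, which are called Piezo2 neurons. A further 12 TL and 10 LS neurons had neither. Each class is a cut on a marker, and its neurons differed between the segments in other genes. Mrgprd, a marker of nonpeptidergic neurons, was at 10 or more in 21.8% of TL and 1.54% of LS Piezo2 neurons, and the peptide precursor gene Uts2b in 0% and 63.1%. Comparisons of the segments within a class are thus not shown to be within a neuron type. Both genes reached 10 in 18 TL and 7 LS neurons, which count as Gfra3 neurons. The lowest Gfra3 value among Gfra3 neurons was 11 in TL and 36.4 in LS, and the highest among Piezo2 neurons was 9.63 in TL and 4.31 in LS. Ntm, the adhesion molecule neurotrimin, was at 10 or more in 48 LS neurons, of which 41 were Gfra3 and 5 were Piezo2 neurons, and in 0 of 167 TL neurons, which allows a share of up to 1.80%.

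The picked cells carried the marks of sensory neurons. Tubb3, Uchl1, Snap25 and Prph were at 10 or more in all 325 neurons, and none of the autonomic or enteric neuron markers Dbh, Phox2a, Hand2, Chat and Slc6a2 reached 10 in any neuron. RNA of satellite glia was present in many libraries. The summed level of 10 glial markers had a median of 2731 in TL Gfra3, 227 in LS Gfra3, 2446 in TL Piezo2 and 2103 in LS Piezo2 neurons, and ran from 6.67 to 92952 over these neurons. Glial content thus differed between the TL and LS Gfra3 neurons that are compared here, and its part in those comparisons was not tested. Without the 11 neurons of highest glial score, the number of neuropeptide genes called was the same in 5 of the 6 comparisons described below. Those 11 were 8 TL and 3 LS neurons, and the glial content of the groups without them was not compared.

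The promoters of these genes share a letter pattern that the choice of genes did not use. The cAMP response element, TGACGTCA, and its shorter core TGACG were searched on both strands in the window from 250 bases before to 50 bases after each gene's start (RefSeq, GRCm38.p6). Of the 10 genes, 9 had a window in the table of promoters, all but Calcb. The full element was in the windows of Cartpt and Sst, and 1.79% of the 32851 promoters searched hold it. The core, which every full element contains, was in the windows of 8 of the 9 genes, all but Nmb, against 20.8% of all promoters. In Gal the core lies past the start of the gene, so it is not printed. The stretches below, read 5′ to 3′ on the strand of the gene, show the element or core in capitals, where CGTCA is the core on the opposite strand.
Cartpt, chr13:99900777-99900806, minus strand, 104 bases before the start: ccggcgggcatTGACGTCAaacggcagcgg
Sst, chr16:23890874-23890903, minus strand, 40 bases before the start: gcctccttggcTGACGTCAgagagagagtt
Vip, chr10:5639128-5639154, plus strand, 74 bases before the start: gatcactactgTGACGtctttcgggga
Adcyap1, chr17:93198915-93198941, plus strand, 86 bases before the start: gactaggatgcTGACGtcttttactga
Calca, chr7:114636407-114636433, minus strand, 60 bases before the start: aagcacagaggTGACGcaatctgtctg
Tac1, chr6:7555007-7555033, plus strand, 38 bases before the start: ctctacaggctCGTCAcgcctgagata
Nts, chr10:102490569-102490595, minus strand, 161 bases before the start: ttagggaagatCGTCActttccatcaa
In Vip and Adcyap1 the core is followed by TC, so that 7 of the letters of the full element are present. These matches describe letters in a window and say nothing of whether a factor binds there.

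Calca (chr7:114631478-114636357, minus strand), which encodes the alpha form of CGRP and, by another splice form, calcitonin, was the most abundant of the 10 genes. Its level ran from 0 to 43728 units in TL neurons with a median of 17464, and from 0 to 46644 in LS neurons with a median of 16695. It was expressed in 159 of 167 TL neurons (95.2%, interval 90.8 to 97.9) and in 156 of 158 LS neurons (98.7%, 95.5 to 99.8). The level of the whole gene was measured, so the CGRP and calcitonin splice forms were not told apart. Within TL, the median was 23076 in Gfra3 and 3851 in Piezo2 neurons, and the mean was 2.54 times higher in Gfra3 neurons, in the same direction in each of the 5 plates that hold both. Within LS, the medians were 22587 and 10191 and the ratio of means was 1.98, again in the same direction in all 5 plates. The mean of LS Gfra3 neurons was 22640 and that of TL Gfra3 neurons 22603, a ratio of 1.00.

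Only 10 neurons fell below 10 units of Calca, and 9 of them were Piezo2 neurons, with 8 from TL and 1 from LS. The remaining neuron was an LS neuron with neither marker. In 5 of the 10 no Calca read was found at all. Calcb was nevertheless at 122 to 422 in 9 of these 10 neurons, and all 10 expressed Nefh, the heavy neurofilament gene, at 206 to 786 units. Nefh was not particular to them. It was at 10 or more in 92.6% of all neurons and in 100% of Piezo2 neurons of both segments, with means of 370 in TL and 218 in LS Piezo2 neurons.

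Calcb (chr7:114718643-114723365, plus strand), which encodes the beta form of CGRP from a gene of its own near Calca, was the most widely expressed. It was at 10 or more in 166 of 167 TL neurons (99.4%, 96.7 to 100) and 156 of 158 LS neurons (98.7%, 95.5 to 99.8), with medians of 1939 and 1691 and a highest value of 9354. Where both were expressed, Calca exceeded Calcb by a median factor of 8.52 in TL Gfra3, 11.5 in LS Gfra3, 6.78 in TL Piezo2 and 6.29 in LS Piezo2 neurons. Calcb exceeded Calca in 17 of 55 TL Piezo2 neurons and 8 of 65 LS Piezo2 neurons, but in only 2 of 100 TL Gfra3 and 0 of 83 LS Gfra3 neurons. The mean of Calcb was 1.89 times higher in Gfra3 than in Piezo2 neurons of TL, in 5 of 5 plates, and 1.30 times higher in LS, in 4 of 5 plates. Both ratios lie below 2.

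The paralogs could share reads, so their coding transcripts (GENCODE M21, GRCm38) were compared. Among 1634 stretches of 75 bases from Calca and 1260 from Calcb, 0 were in both, so no single 75-base read can match both genes exactly. The longest shared run was 61 bases of coding sequence, printed here because it is where a shorter or trimmed read would be ambiguous.
Shared by Calca (chr7:114632541-114632599, minus strand, exon 4, with 2 bases of exon 3) and Calcb (chr7:114721975-114722033, plus strand, exon 5, with 2 bases of exon 4), with the whole shared run in capitals: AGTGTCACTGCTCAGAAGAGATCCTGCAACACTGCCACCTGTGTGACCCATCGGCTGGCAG
How the authors' counting treated reads within this run was not tested, and the lower of the paralogs, Calcb, is the less certain.

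Tac1 (chr6:7554879-7565834, plus strand) encodes the precursor of substance P and neurokinin A. It was expressed in 128 of 167 TL neurons (76.6%, 69.5 to 82.8) and 128 of 158 LS neurons (81.0%, 74.0 to 86.8), and its median level was 919 in TL and 2516 in LS. The level separated Gfra3 from Piezo2 neurons. In TL the median was 2416 against 3.47 and the means were 2381 against 224, a ratio of 10.6 in the same direction in all 5 plates. In LS the median was 4125 against 80.9 and the means were 4163 against 763, a ratio of 5.46, also in all 5 plates. The classes still overlapped, since Tac1 reached 2185 in a TL Piezo2 neuron and 3730 in an LS Piezo2 neuron, while the lower quartile of Gfra3 neurons was 1091 in TL and 3489 in LS.

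Tac1 was also higher in LS than in TL neurons placed in the same class by the marker. Among Piezo2 neurons the mean was 3.40 times higher in LS, with means of plates 2 to 6 of 612 to 933 in LS and 0.352 to 507 in TL. Among Gfra3 neurons it was 1.75 times higher, with plate means of 3710 to 4827 in LS and 1572 to 3542 in TL. Within each class, the means of plates 2 to 6 did not overlap between the segments. How many of all genes do the same was not counted.

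Adcyap1 (chr17:93199017-93206537, plus strand) encodes PACAP, a peptide of the VIP family. It was expressed in 135 of 167 TL neurons (80.8%, 74.0 to 86.5) and in 153 of 158 LS neurons (96.8%, 92.8 to 99.0). The median was 572 in TL and 1031 in LS. The gap lay mainly in Piezo2 neurons, where 30 of 55 TL neurons (54.5%, 40.6 to 68.0) and 63 of 65 LS neurons (96.9%, 89.3 to 99.6) expressed it. Their means were 241 in TL and 764 in LS, a ratio of 3.16, and the plate means were 71.7 to 600 in TL and 551 to 918 in LS. In Gfra3 neurons 99 of 100 TL and 82 of 83 LS neurons expressed it, and the mean was 1.5 times higher in LS, in 5 of 5 plates. Between classes, Gfra3 neurons had the higher mean by 3.80 times in TL and 1.81 times in LS.

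Gal (chr19:3409915-3414544, minus strand) encodes galanin, an inhibitory peptide that DRG neurons are known to make in larger amounts after axon injury. Within Gfra3 neurons it ran from 0 to 19960 in TL with a median of 3789, and from 0 to 21130 in LS with a median of 4852. The expressing share was 123 of 167 in TL (73.7%, 66.3 to 80.2) and 140 of 158 in LS (88.6%, 82.6 to 93.1). Among Piezo2 neurons 24 of 55 in TL (43.6%, 30.3 to 57.7) and 53 of 65 in LS (81.5%, 70.0 to 90.1) expressed it, mostly at low level, with medians of 1.4 and 76.5. Gfra3 neurons had the higher mean by 7.70 times in TL and 12.8 times in LS, in every plate.

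A single neuron decided the mean of Gal in TL Piezo2 neurons. TL neuron 21 held 22925 units from 26386 reads, the highest Gal value of all neurons, and the next highest TL Piezo2 neuron held 2885. With it the TL Piezo2 mean was 602, above the 408 of LS, and without it 189. The ratio of LS to TL among Piezo2 neurons then went from 0.676 to 2.16, so the direction turned on that neuron. In reads thinned to 500000 per neuron the ratio was 2.02. The ratio of Gfra3 to Piezo2 neurons in TL rose from 7.70 to 24.6 without it, and was 34.8 without plate 2, which holds it. This neuron also held 851 units of Nts and 0.418 of Calca. Its Gfra3 value of 9.63 lay just under the cut of 10, so its place among Piezo2 neurons rests on that cut.

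These neurons were traced by surgery and dissociated, so the injury gene Atf3 is given beside Gal. Atf3 was at 10 or more in 314 of 325 neurons. In TL its median was 199 in neurons with Gal and 205 in neurons without, and in LS 352 and 210. TL neuron 21 held 1559 units of Atf3, and the highest TL values were 1641 with Gal and 1746 without. The mean of Atf3 was 2.04 times higher in LS than in TL Gfra3 neurons. Uninjured neurons were not measured, and the part of injury in the level of Gal was not tested.

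Nmb (chr7:80902227-80905076, minus strand) encodes neuromedin B, a bombesin-like peptide with a role in itch signalling. It was the common gene called as higher in TL by the rule described below. Nearly equal shares expressed it, with 156 of 167 in TL (93.4%, 88.5 to 96.7) and 147 of 158 in LS (93.0%, 87.9 to 96.5), but the median was 920 in TL and 190 in LS. The means of 923 and 366 differed 2.53-fold, with plate means of 817 to 1130 in TL and 276 to 505 in LS. Among Piezo2 neurons the TL mean was 5.07 times higher, at 805 against 159, with medians of 856 and 42.5. Among Gfra3 neurons it was 1.92 times higher, at 1032 against 536. Plate means there were 854 to 1229 in TL and 393 to 726 in LS. Gfra3 and Piezo2 neurons differed by 1.28 times in TL and by 3.38 times in LS. After each neuron was thinned to 500000 reads, with 5 reads taken as expressed and no scaling to gene length, the share was 93.4% in TL and 83.9% in LS. Part of the gene overlaps Sec11a on the same strand, and reads from the overlap cannot be told apart.

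Cartpt (chr13:99898489-99901091, minus strand) encodes the CART peptides. It was expressed in 125 of 167 TL neurons (74.9%, 67.6 to 81.2) and 146 of 158 LS neurons (92.4%, 87.1 to 96.0), with medians of 212 and 1811 and means of 920 and 2863, a ratio of 3.11. Plate means were 470 to 1214 in TL and 1939 to 3987 in LS. The widest gap of any common gene lay in Piezo2 neurons. There the TL values had a median of 12 and a mean of 189, and the LS values a median of 2848 and a mean of 3567, a ratio of 18.9. Means of plates 2 to 6 were 7.99 to 705 in TL and 1553 to 5647 in LS. The 3 TL Piezo2 neurons of plate 1, which holds no LS neuron, had a mean of 1703, and without that plate the ratio was 35.2. In Gfra3 neurons the LS mean was 1.72 times higher, with 2405 against 1400. Within TL, Cartpt was 7.42 times higher in Gfra3 than in Piezo2 neurons, in 5 of 5 plates, and 13.8 times without plate 1. Within LS the ratio was 0.674, with Piezo2 neurons higher in 4 of 5 plates, so the order of the classes differed between the segments. The difference between these ratios was not tested.

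**Figure D1:**
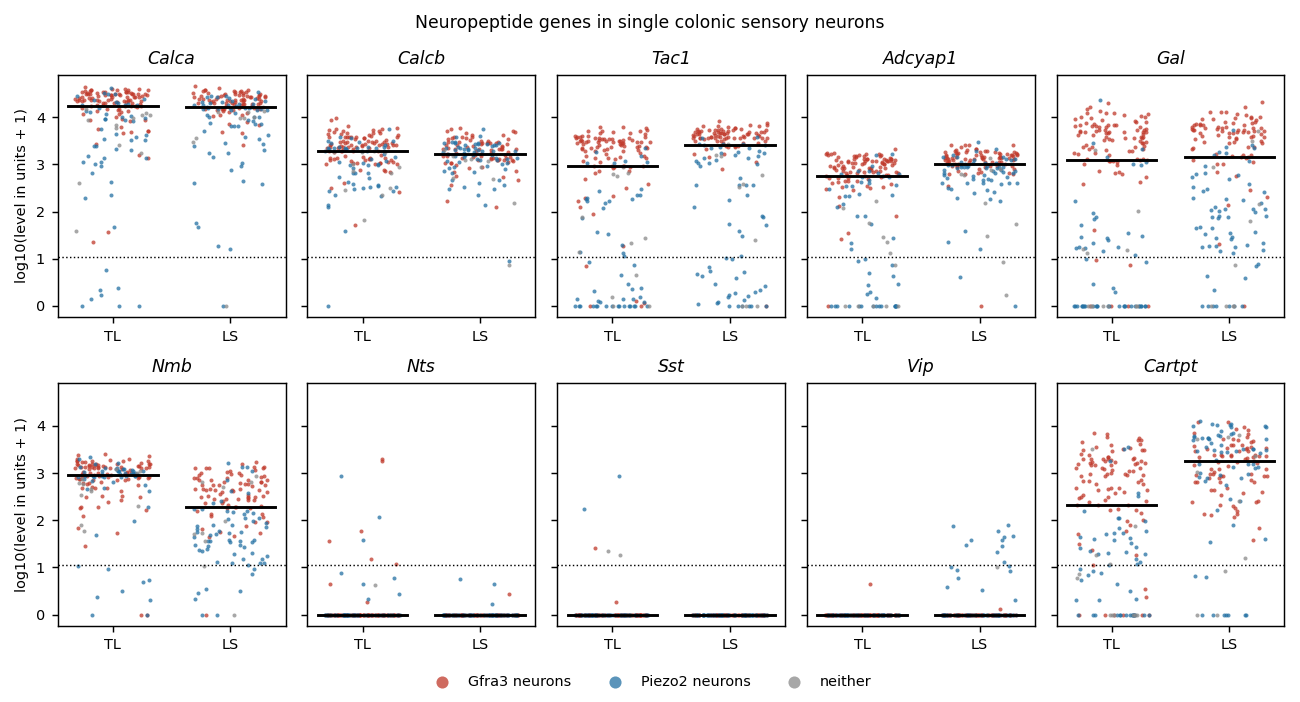
Level of each neuropeptide gene in each neuron, as log10 of the level in units plus 1, for 167 TL and 158 LS neurons. Points are neurons, coloured as Gfra3 neurons (red), Piezo2 neurons (blue) or neither (grey), bars are medians and the dotted line marks 10 units. The median of Nmb was 920 in TL and 190 in LS neurons, and that of Cartpt 212 in TL and 1811 in LS.

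**Figure D2:**
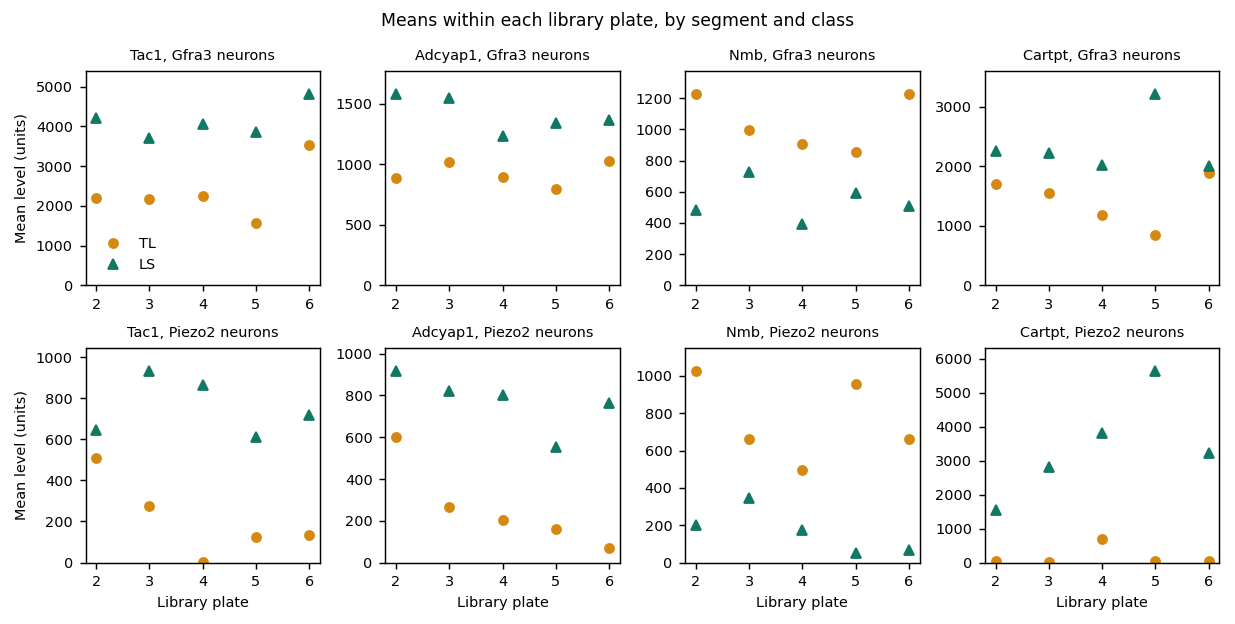
Mean level, in units, of Tac1, Adcyap1, Nmb and Cartpt in each of library plates 2 to 6, for TL (circles) and LS (triangles) neurons, in Gfra3 neurons (top) and Piezo2 neurons (bottom). Each axis starts at 0. In every plate the LS mean lies above the TL mean for Tac1, Adcyap1 and Cartpt and below it for Nmb.

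Nts (chr10:102481756-102490486, minus strand), the precursor of neurotensin, was found in few neurons. It was at 10 or more in 9 of 167 TL neurons (5.39%, 2.49 to 9.98) and in 0 of 158 LS neurons, which allows a share of up to 1.90%. The values were 1942, 1811, 851, 117, 57.6, 36.6, 35.6, 13.8 and 10.9 units, from 11 to 3566 reads. The highest LS value was 4.56, from 13 reads. The 3 highest values all came from plate 2. Of the 9 neurons, 6 were Gfra3 and 3 were Piezo2 neurons. In the 2 neurons with the highest levels Nts was the most abundant of the 10 genes, while Calca was at 21.8 and 36.3.

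Sst (chr16:23889573-23890958, minus strand), the precursor of somatostatin, was at 10 or more in 5 of 167 TL neurons (2.99%, 0.979 to 6.85) and listed at 0 in all 158 LS neurons. The values were 848, 169, 25.4, 21.1 and 17.7, and the third rests on 4 reads. In the neuron where it counted most, 1 read of Sst was worth 10.1 units. After thinning to 500000 reads the share in TL was 1.20%. Of the 5 neurons, 3 also expressed Nts. Somatostatin and neurotensin are known markers of a class of itch-related DRG neurons that also expresses Nppb, Il31ra and Osmr. TL neuron 109, with the highest Sst, held 117 units of Nts, 388 of Nppb, 139 of Il31ra and 62.1 of Osmr, and also 731 of Mrgprd. TL neuron 8, with the highest Nts, held 394 of Nppb, 171 of Il31ra and 74.5 of Osmr, but 0 of Sst. The neurons with the next highest Nts, TL neurons 25 and 21, held 0 of Nppb, Il31ra, Osmr and Sst. TL neuron 43, with the second highest Sst, held 0 of Nppb and 19217 of the endothelial gene Cldn5. These neurons and genes were singled out after their values were seen.

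Vip (chr10:5639218-5647617, plus strand), the precursor of vasoactive intestinal peptide, was found in the other segment. It was at 10 or more in 11 of 158 LS neurons (6.96%, 3.53 to 12.1) and in 0 of 167 TL neurons, which allows up to 1.80%, with a highest TL value of 3.52 from 8 reads. All 11 were Piezo2 neurons, 16.9% of that class in LS (8.76 to 28.3), against 0 of 83 LS Gfra3 neurons, which allows up to 3.61%, and 0 of 55 TL Piezo2 neurons, which allows up to 5.45%. The values were 79.8, 76.3, 56.8, 46.0, 42.8, 38.1, 37.2, 28.8, 28.0, 20.1 and 12.2 units, from 21 to 215 reads, and the neurons came from plates 2 to 6. The level was low beside the other peptides of the same neurons. In the 11 neurons Cartpt had a median of 9562, Calca of 10152 and Adcyap1 of 669, while the median of Vip was 38.1. None of the 11 expressed Ntm. The highest Vip value under 10 in an LS Piezo2 neuron was 9.52.

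All 11 Vip neurons also expressed Uts2b, the precursor of urotensin-2B, at 294 to 8033 units with a median of 4082. Among the other 54 LS Piezo2 neurons 30 expressed it (55.6%, 41.4 to 69.1), with a median of 436. Of the 41 LS Piezo2 neurons with Uts2b, 26.8% had Vip, and of the 24 without, 0 had. The Cartpt medians were 9562 with Vip and 1555 without, and the ranges of 1337 to 12692 and 0 to 10548 overlapped. Tac1 was expressed in 6 of the 11 and in 33 of the 54. The split by Vip was made after the values were seen.

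**Figure D3:**
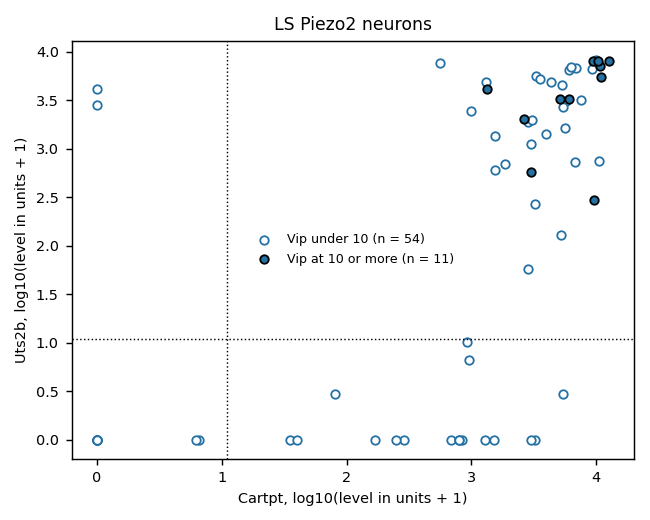
Cartpt (x axis) and Uts2b (y axis) in the 65 LS Piezo2 neurons, each as log10 of the level in units plus 1. Filled points are the 11 neurons with Vip at 10 or more, open points the 54 with Vip under 10, and dotted lines mark 10 units. All filled points lie above both lines.

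Most neurons expressed several of the genes. Each of the 7 common genes alone was at 10 or more in 78.8% to 99.1% of all neurons, so joint expression is frequent from these shares alone. The share of each set to be had without any link between genes was not computed. No neuron lacked all 10, and the median neuron expressed 7 in both segments. The mean number was 6.02 in TL and 6.56 in LS, and the spread of plate means over plates 2 to 6 was 0.315 (SD) in TL and 0.210 in LS. The set Calca, Calcb, Tac1, Adcyap1, Gal, Nmb and Cartpt with none of the other 3 was the most frequent, in 96 TL neurons (57.5%, 49.6 to 65.1) and 116 LS neurons (73.4%, 65.8 to 80.1). With Nts, Sst or Vip allowed beside them, all 7 were expressed in 59.9% of TL and 75.9% of LS neurons. Exactly the 7 were the set of 87 of 100 TL Gfra3 neurons, 81 of 83 LS Gfra3 neurons and 31 of 65 LS Piezo2 neurons, but of only 8 of 55 TL Piezo2 neurons (14.5%, 6.50 to 26.7). In TL Piezo2 neurons no set was held by more than 8 neurons. Those held by 5 to 8 neurons were the full set, the set without Tac1 and Cartpt, the set without Adcyap1 and Gal, the set without Tac1, Gal and Cartpt, and the set of Calca, Calcb, Tac1 and Nmb.

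**Figure D4:**
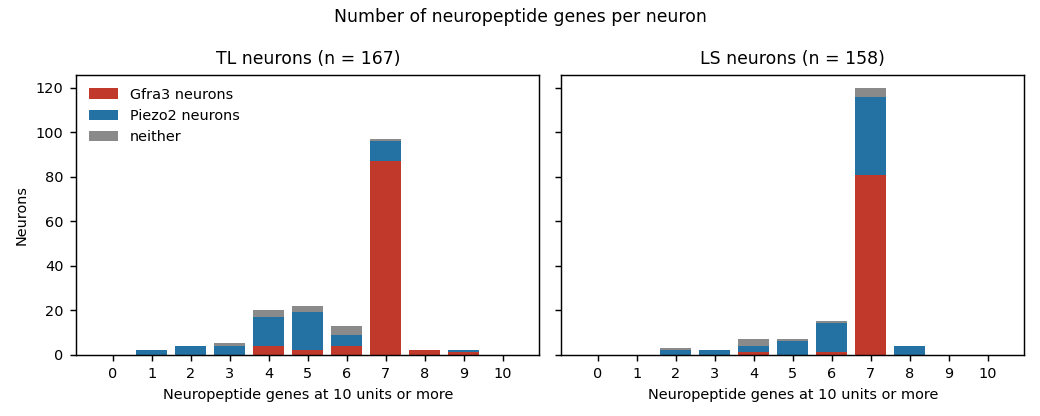
Number of the 10 neuropeptide genes at 10 units or more (x axis) against the number of neurons (y axis) for TL (left) and LS (right), with bars stacked by class. 97 TL and 120 LS neurons expressed exactly 7, and the TL neurons with 6 or fewer are mostly Piezo2 neurons.

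For pairs of genes, the share over all neurons of the segment is given beside the share with both. Every LS neuron with Gal expressed Adcyap1 (140 of 140), beside 153 of 158 LS neurons in all. In TL, 96.7% of the neurons with Gal expressed Adcyap1, beside 135 of 167 in all. Of the TL neurons with Adcyap1, 88.1% expressed Gal, beside 123 of 167 in all. All 128 neurons with Tac1 in each segment expressed Calca, beside 159 of 167 TL and 156 of 158 LS neurons in all. Of Calca neurons, 80.5% in TL and 82.1% in LS expressed Tac1, beside 128 of 167 and 128 of 158 in all. Since Calca was in nearly every neuron, its shares with Tac1 do not show a link between them.

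Some of these shares moved in thinned reads, a setting that also drops the scaling to gene length. The parts of depth and of scaling were not told apart. With each neuron thinned to 500000 reads and 5 reads taken as expressed, which leaves out 1 TL and 3 LS neurons, the shares in TL and LS were 64.5% and 80.0% for Gal, 66.3% and 91.0% for Cartpt, 81.9% and 96.8% for Adcyap1 and 77.7% and 81.9% for Tac1. Nts was then at 4.82% in TL and Vip at 6.45% in LS, and the order of the segments was unchanged for each of these genes.

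Together the 10 genes held 2.45% of the neuron's total in the median TL neuron and 2.84% in the median LS neuron by this measure. Their summed value was 3.87% of the neuron's total in the median TL Gfra3 neuron, 3.78% in LS Gfra3, 0.625% in TL Piezo2 and 1.97% in LS Piezo2 neurons. Calca ranked first among the 10 in 146 of 167 TL neurons (87.4%) and 139 of 158 LS neurons (88.0%). By these length-scaled levels, the gene in second place depended on class. Gal was second in 64 of 100 TL Gfra3 and 43 of 83 LS Gfra3 neurons, Calcb in 21 of 55 TL Piezo2 neurons, and Cartpt in 31 of 65 LS Piezo2 neurons. In a further 11 LS Piezo2 neurons Cartpt ranked first.

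**Figure D5:**
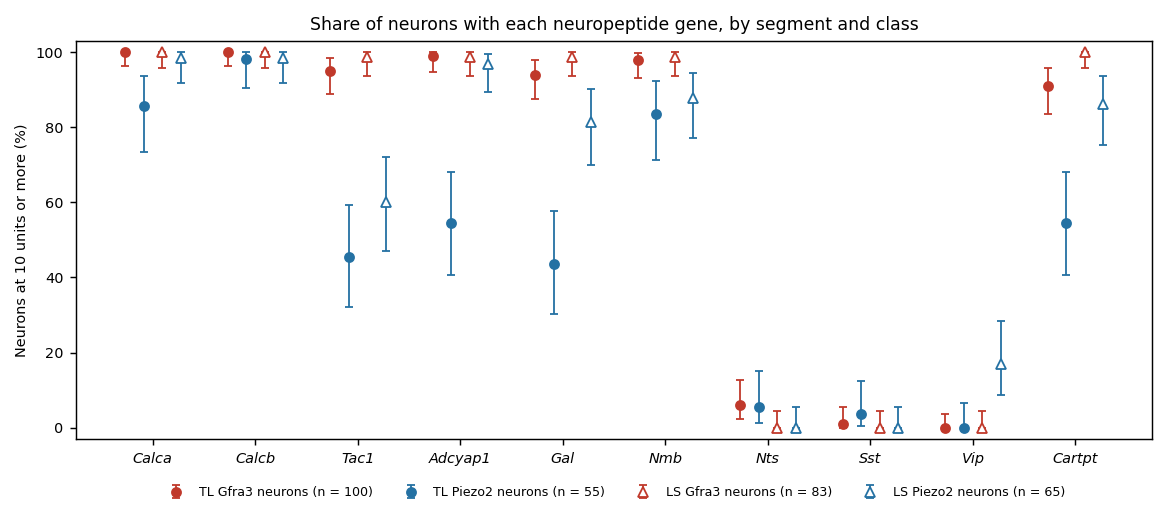
Share of neurons at 10 units or more (y axis, percent) for each gene in 100 TL Gfra3, 55 TL Piezo2, 83 LS Gfra3 and 65 LS Piezo2 neurons. Bars are exact 95% binomial intervals. Adcyap1 was found in 54.5% of TL Piezo2 and 96.9% of LS Piezo2 neurons, and Vip in 16.9% of LS Piezo2 neurons.

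All genes of the table were then passed through 1 rule, as the background for these differences. A gene was tested if its mean was at least 10 units in 1 of the groups, and called if the means differed at least 2-fold and in the same direction in every plate with at least 3 neurons in each group. Between LS and TL 366 of 7752 genes tested were called (4.72%), and of the neuropeptide genes 3 of the 8 tested were: Cartpt higher in LS, and Nmb and Nts higher in TL. The call of Nts was lost without plate 2. On the deposited scale, before rescaling, the call of Cartpt was lost although its ratio was 2.85. Tac1 at 1.68 times and Adcyap1 at 1.69 times were higher in LS in all 5 plates but below the 2-fold limit, and Calca at 1.01, Gal at 0.994 and Calcb at 0.883 were near equal. The median log2 ratio was 0.0037 over the 8 genes and 0.044 over all genes tested.

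Within classes the counts differed. Among Gfra3 neurons 3.22% of all genes and 1 of 8 neuropeptide genes, Nts, were called. Among Piezo2 neurons 7.64% of all genes and 4 of 9 were called, with Cartpt, Tac1 and Adcyap1 higher in LS and Nmb higher in TL. Before rescaling, Tac1 (3.7 times) and Adcyap1 (3.38 times) lost that call, and Tac1 also lost it with a class threshold of 50, by the difference of mean log2 values and with the most abundant transcript left out of the total. The call of Nts among Gfra3 neurons was lost without plate 2. Between Gfra3 and Piezo2 neurons 8.60% of all genes were called in TL and 8.55% in LS. In TL, Calca, Tac1, Adcyap1, Gal and Cartpt were called, and in LS Tac1, Gal and Nmb, all of them higher in Gfra3 neurons. The median log2 ratio over the neuropeptide genes tested was 1.3 in TL and 0.99 in LS, beside -0.032 and -0.018 over all genes. In LS, Calca at 1.98 times lay just below the limit and was called under 10 of the alternatives other than the lower ratio.

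Ntm divided the LS Gfra3 neurons into 41 with and 42 without, and 4.28% of all genes were called between them over the 4 plates that could be used. Nmb had a mean of 316 with Ntm and 751 without, 2.37 times higher without it. Calcb had means of 1454 and 2934, a ratio of 2.02 that lies at the limit, and its call was lost under 7 of the alternatives, among them without plate 3. The call of Nmb was lost without plate 5, at 0.511 with to without Ntm. On the deposited scale, before rescaling, neither was called, Calca had a ratio of 1.02 with to without Ntm, and the median log2 ratio of all genes was 0.76 and 94.5% of calls were higher with Ntm, beside 0.06 and 59.9% after rescaling. Calca, with 17956 against 27212, and Cartpt, with 1642 against 3149, were also higher without Ntm in 4 of 4 plates but were not called. Tac1 (4304 and 4026), Adcyap1 (1345 and 1415) and Gal (5081 and 5374) differed in direction between plates. Relative to the total of the neuron, both CGRP genes, Nmb and Cartpt were lower in neurons with Ntm, and Tac1, Adcyap1 and Gal differed by less than 1.10 times.

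The genes that process and store peptides were broadly expressed. Of 16 such genes, Scg2 (mean 1276 over all neurons), Pcsk1n (1044), Cpe (515) and Scg3 (406) were the highest, which encode granins, a convertase inhibitor and carboxypeptidase E. Between LS and TL 2 of 15 tested were called, both higher in LS: Pcsk1, a prohormone convertase, by 2.94 times and Qpct, glutaminyl cyclase, by 3.71 times. The median log2 ratio of the list was 0.29. Among Piezo2 neurons 4 of 16 were called and higher in LS, with Pcsk2 (2.82 times), the second convertase, and Pam (3.19 times), the enzyme that amidates many neuropeptides, joining Pcsk1 (2.86 times) and Qpct (7.11 times). Among Gfra3 neurons Scg2 (2.02 times), Pcsk1 (2.42 times) and Qpct (3.09 times) were called and higher in LS. Gfra3 neurons of TL had higher Pam, Qpct and Ptprn and lower Pcsk1, Cpe and Cadps2 than Piezo2 neurons, while in LS Scg2 was higher and Pcsk1 and Pcsk2 were lower in Gfra3 neurons. Pcsk1, Pcsk2 and Qpct were higher in LS Gfra3 neurons with Ntm than in those without.

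Receptors for the same peptides were few. Of 21 receptor genes with a value, 3 had a mean of at least 10 in either segment. These were Galr1, a galanin receptor, with means of 45.1 in TL and 19.9 in LS, and the somatostatin receptors Sstr2 (29.7 and 19.8) and Sstr4 (6.61 and 18.2). The neurotensin receptor Ntsr2 was the next highest, with a mean of 5.35 over all neurons. Sstr4 was called and 2.75 times higher in LS. Sstr2 was called between classes, with 48.8 in Gfra3 and 1.41 in Piezo2 neurons of TL and 36.3 and 1.82 in LS. Sstr4 was also called and higher in LS among Gfra3 neurons, in Gfra3 against Piezo2 neurons of LS, and with Ntm. Galr1 was called among Piezo2 neurons, where it was lower in LS at 0.344 times the TL mean, and was lower in LS Gfra3 neurons with Ntm than without. Calcrl and Ramp1, the subunits of the CGRP receptor, were at 10 or more in 9 and 5 of 325 neurons, and Tacr1, the substance P receptor, in 0. The galanin receptor gene Galr3 was not used here.

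Among other peptide precursors Uts2b and Adm had the highest means. Of 28 genes, 2 were tested between LS and TL and both were called and higher in LS. Uts2b had a mean of 2294 in LS Piezo2 neurons, where 63.1% expressed it, 0.0817 in LS Gfra3, 1.10 in TL Gfra3 and 0.0211 in TL Piezo2 neurons. Adm, which encodes adrenomedullin, a peptide of the CGRP family, had means of 105, 21.4, 6.76 and 6.17 in the same order. Pomc (5.71) and Npy (4.89) had the next highest means over all neurons. Pomc was at 10 or more in 50 neurons, and Npy in 2 TL Piezo2 neurons. Of the 9 injury genes, Gap43, Atf3, Jun and Sprr1a had the highest means, at 1257, 367, 213 and 62.4. Gadd45a was called and higher in LS in all 3 comparisons of the segments, and Atf3 and Flrt3 among Gfra3 neurons. Ecel1 was higher in Gfra3 than in Piezo2 neurons of LS, and with Ntm it was lower and Csf1 higher. Of the 7 itch-related genes Osmr was called and 2.25 times higher in LS, while Sst and Nts were found in TL. Osmr was also higher in Gfra3 than in Piezo2 neurons of LS.

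Genes of other cell types and classes moved with some of these comparisons. The glial genes Sox10 and Cdh19 were called and higher in TL over all neurons, and S100b among Gfra3 neurons. S100b was lower in Gfra3 than in Piezo2 neurons of both segments, and lower with Ntm. Dcn, from the list of endothelial and fibroblast genes, had a mean of 58.1 in TL and 268 in LS neurons. It was called in 5 of the 6 comparisons, all but LS against TL among Piezo2 neurons. Dcn was at 10 or more in 141 neurons, but the fibroblast genes Col1a1 and Col3a1 in only 3 each and Pdgfra in 1. The source of the Dcn RNA was not tested. No macrophage marker of 8 passed the minimum mean in either segment. Among the sensory class markers, Trpv1, the capsaicin receptor, and Th were called and higher in LS, and P2rx3 and Gfra2 were higher in TL. Among Piezo2 neurons Ntrk2 was higher in LS and Ntrk3 in TL. The neuron markers Rbfox3, Avil and Snap25 were each called in at least 1 comparison, always lower in the group named first here, which is LS, Gfra3 neurons or neurons with Ntm. Between classes Trpv1 was 12.4 times higher in Gfra3 neurons of TL and 8.53 times in LS, and Nefh was lower in both.

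For each of the 7 common genes the 3 genes most like it were taken by Spearman's rho over the 325 neurons, among 11885 genes at 10 or more in at least 5% of them. The neurons share segments, classes, plates and a range of depth, so rho is a description. Tac1 went with Trpv1 (0.89), Gpx3 (0.81) and Car8 (0.78), and Adcyap1 with Trpv1 (0.77), Fstl1 (0.75) and Sema4d (0.74). Gal went with Gpx3 (0.83), Rxrg (0.82) and Gfra3 (0.80). Calca went with Calcb (0.79), Cd9 (0.78) and Tmem176a (0.76), and Calcb with Calca, Steap3 (0.70) and Reep1 (0.64). Nmb went with Capn5 (0.67), Deptor (0.66) and Ephx1 (0.65), and for Capn5 rho was 0.33 within TL and 0.75 within LS. Cartpt went with the nicotinic receptor subunits Chrna3 (0.75) and Chrnb4 (0.69) and with Ass1 (0.70). Among the neuropeptide genes themselves Tac1 and Gal (0.76) and Tac1 and Adcyap1 (0.74) were close, at 0.76 and 0.77 and at 0.71 and 0.72 within TL and LS. Over all neurons rho of Nmb was -0.14 with Cartpt and 0.13 with Adcyap1, but within TL and LS it was 0.28 and -0.22 with Cartpt and 0.34 and 0.45 with Adcyap1.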

How the data were processed

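Smart-seq2 libraries of single neurons were sequenced as 75 bp paired-end reads. Per the submitters' processing notes the tools were bcl2fastq 2.15.0.4, STAR 2.4.1 and featureCounts 1.4.4, with the genome GRCm38.p3. What the authors deposited is 1 table, whose values are log2 of a length-scaled expression value plus 1. The 74 other labelled neurons and 13 bath controls were not analysed here, so background from the bath was not measured. Columns of the table were matched to labels by title.

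Values were taken off the log2 scale and rescaled to 1000000 per neuron. Each was then expressed as reads times a factor of the neuron over a gene length. With GENCODE M21 lengths 65.0% of the 4200058 values above 0 were whole reads (relative tolerance 1e-06), and with lengths found from the values all were, within 4.7e-08 reads. No 2 neurons held identical values. No doublet caller was run on hand-picked neurons.

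The 10 genes and all lists were chosen with earlier results of these data known. The genes named are these 10, the class markers, the 3 most correlated genes of each member found in at least 20 neurons, and from each list the genes called and the 4 of highest mean, of which some are not reported here. Neurons are not replicates, so differences were described by ratios of means over all neurons of a group, with their direction checked in each of plates 2 to 6. Plate means are of these plates unless plate 1, which held 5 TL neurons, is named. The rule of calling and the recovery of reads were tested on simulated data. Alternatives changed thresholds, scaling, depth, neurons, plates and the call rule. Python 3.11 tools were used (numpy, pandas, scipy, matplotlib).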

Additional observations from a re-analysis of the deposited data

How the results depend on the processing

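No paired analysis was possible because the numbers of neurons in the labels name single cells, not pairs. The segments were instead compared within plates 2 to 6. Of 228 summary values under the alternatives, 201 stayed within their limits (1.5 times for a count, the counting interval for a share, the SD of plate means for a mean) and 27 moved. Of 829 ratios of single genes, 762 kept their call or lack of one, 46 gained a call, 18 lost one and 3 turned to the other side of 1 with a call. Of the 762, 38 turned with neither value called. The 3 were of Gal between LS and TL Piezo2 neurons, at 2.01 without 47 neurons with few genes, 2.74 without plate 2 (0.482 to 2.74 when a plate was left out) and 2.49 with the abundant transcript CT010467.1 left out of the total, an alternative chosen after seeing the data. TL neuron 21 is in plate 2. With an expression threshold of 1 the mean number of genes per neuron was 6.35 in TL and 6.84 in LS, and with 50 it was 5.60 and 6.11. The LS share with all 7 common genes was 82.9% with a threshold of 1, 60.1% with 50, 66.5% in CPM and 68.4% in thinned reads. With a class threshold of 50, Piezo2 neurons made 24.6% of TL and 23.4% of LS. The neuropeptide genes called between LS and TL were 5 with a ratio of 1.5. Among Gfra3 neurons they were 0 with a class threshold of 50, 3 by the log2 difference, 5 with a ratio of 1.5, and 0 to 2 when a plate was left out, with 0 without plate 2. Between Gfra3 and Piezo2 neurons of LS they were 6 without rescaling, 5 by the log2 difference and 5 with a ratio of 1.5. For Ntm they were 0 without rescaling, 4 with a ratio of 1.5, and 1 in CPM, without neurons with few genes, without the 11 neurons of highest glial score and with a class threshold of 50. The cause of these moves was not tested.

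Over all genes, calls between LS and TL rose from 366 to 741 with a ratio of 1.5 and to 1292 with a minimum mean of 1. Under the same changes they rose from 248 to 523 and 981 among Gfra3 neurons, from 602 to 1142 and 1572 among Piezo2 neurons, from 676 to 1206 and 1647 between classes of TL, from 675 to 1245 and 1742 between classes of LS, and from 332 to 708 and 1088 for Ntm. For Ntm they were 1440 without rescaling and 916 with a class threshold of 50. Among Gfra3 neurons they were 395 without plate 6 and 403 without the plate rule. Without rescaling, the share of calls higher in LS went from 52.2% to 33.5% over all neurons, from 48.8% to 36.2% among Gfra3 neurons and from 61.5% to 40.9% among Piezo2 neurons. The share higher in Gfra3 neurons went from 52.1% to 71.1% in TL and from 44.0% to 76.1% in LS, with median log2 ratios of 0.38 and 0.46.

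Depth limits the rare genes: Sst rests on 4 reads in 1 neuron, and Vip and Nts on 21 and 11 reads in their least covered neurons. Intervals cover counting error only, neurons of a segment share mice and cultures that the labels do not name, and libraries of bath solution were not analysed here.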
